A study of Mus musculus with 12 samples.

Results

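The CC chemokine ligands *Ccl2*, *Ccl3*, *Ccl4*, *Ccl5*, *Ccl6*, *Ccl7*, *Ccl8*, *Ccl9*, *Ccl12* and *Ccl19* were followed in bulk RNA-sequencing of mouse brain collected 14 d post-stroke. They were taken from the table of read counts by gene symbol and make up 10 of its 49315 genes. Of these ligands, 9 had enough counts to be tested, and *Ccl19* did not. All 12 mice were male CD45.1 Pep Boy recipients (B6.SJL-Ptprca Pepcb/BoyJ, congenic on C57Bl6) with intact *Tet2*, aged 8 to 12 weeks when they were irradiated with the head shielded and given mixed bone marrow (BM). In the *Tet2*-KO group (6 mice) 10% of the marrow was CD45.2 Tet2-/- and 90% was CD45.1 Tet2+/+, whereas in the WT group (6 mice) the 10% was CD45.2 Tet2+/+. Each mouse had its right middle cerebral artery occluded for 30 min between 8 and 10 weeks after the transplant, so both groups carried irradiation, transplant and stroke. The model has limits that bear on every value below. Only a minority of the transplanted marrow lacked *Tet2*, RNA from donor and host cells was counted together, and the tissue, brain in the labels, was whole hemispheres by the account of the study. The labels' treatment entry names control cells for both groups, so the groups rest on the titles and genotype entries.

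CC chemokines are small secreted proteins, named for a pair of adjacent cysteines, that draw leukocytes along a gradient by binding G protein-coupled receptors on the leukocyte surface. *Ccl2*, *Ccl7* and *Ccl12* encode ligands of CCR2, the receptor that brings inflammatory monocytes into tissue, and *Ccl8* encodes a closely related ligand that acts on CCR8 in the mouse. *Ccl3* and *Ccl5* encode ligands of CCR1 that draw monocytes and T cells, *Ccl4* encodes a close relative of *Ccl3*, and *Ccl6* and *Ccl9* encode ligands of CCR1 made mainly by myeloid cells. *Ccl19* encodes a ligand of CCR7, which guides T cells and dendritic cells to lymph nodes. After stroke, microglia, infiltrating macrophages and astrocytes are known sources of these ligands in the brain.

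In the GRCm38 build, 9 of the 10 genes lie on chromosome 11 in a pair of clusters. The first cluster runs from *Ccl2* (chr11:82035571-82037453) through *Ccl7* (chr11:82045712-82047525) and *Ccl12* (chr11:82101845-82103400) to *Ccl8* (chr11:82115185-82116799), all on the plus strand. After a gap of 1409 kb the second holds *Ccl5* (chr11:83525778-83530518), *Ccl9* (chr11:83572919-83578636), *Ccl6* (chr11:83587882-83593087) and *Ccl3* (chr11:83647844-83649355) on the minus strand and *Ccl4* (chr11:83662584-83664683) on the plus strand. *Ccl19* lies apart, on the minus strand at chr4:42754525-42756577. In the annotation used here no exon of any of the 10 overlapped an exon of another gene. Whether the deposited counts of these genes depend on the use of strand in counting was not tested. For *Ccl19*, 52% of its 50-base stretches also occur in transcripts of 4 other genes or pseudogenes, among them *Ccl19-ps1* and *Ccl19-ps3*, and its counts are uncertain for that reason. The 2 neighbouring genes *Ccl6* and *Ccl9* share no such stretch, and of the other ligands only *Ccl9* shared any (1.97%, with 463 genes).

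The sequences before the transcription start are shown for a pair of neighbours from each cluster. The ratio of *Ccl12* and *Ccl8* differed between the groups in a test with all 12 mice, and that of *Ccl9* and *Ccl6* did not pass it. These tests are described with the ratios, and without *Tet2*-KO replicate 1 none of the pairs of ligands passed after adjustment. The promoter table used here, from RefSeq (build GRCm38.p6), was matched to 6 of the 10 ligands, and no window was used for *Ccl2*, *Ccl4*, *Ccl5* or *Ccl7*. The windows hold the 250 bases before the start and are written 5′ to 3′ on the strand of the gene. They are chr11:82101595-82101844 (plus) for *Ccl12*, chr11:82114935-82115184 (plus) for *Ccl8*, chr11:83578637-83578886 (minus) for *Ccl9* and chr11:83593088-83593337 (minus) for *Ccl6*. Capitals mark matches, on either strand, to TATAAA, to the AP-1 motif TGANTCA and to the NF-kB consensus.
Ccl12: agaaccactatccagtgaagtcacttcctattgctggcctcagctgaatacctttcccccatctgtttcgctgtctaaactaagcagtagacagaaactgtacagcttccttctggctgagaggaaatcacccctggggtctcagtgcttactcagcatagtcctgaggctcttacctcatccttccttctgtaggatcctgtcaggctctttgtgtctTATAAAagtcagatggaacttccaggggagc
Ccl8: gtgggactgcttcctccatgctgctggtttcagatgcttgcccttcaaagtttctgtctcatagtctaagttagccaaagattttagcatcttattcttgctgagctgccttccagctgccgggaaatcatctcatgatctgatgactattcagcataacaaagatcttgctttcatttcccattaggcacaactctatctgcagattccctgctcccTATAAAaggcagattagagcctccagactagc
Ccl9: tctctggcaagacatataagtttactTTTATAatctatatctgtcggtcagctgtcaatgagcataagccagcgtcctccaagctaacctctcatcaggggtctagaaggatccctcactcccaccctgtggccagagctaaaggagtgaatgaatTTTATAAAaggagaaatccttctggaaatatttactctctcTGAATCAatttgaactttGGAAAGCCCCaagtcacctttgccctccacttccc
Ccl6: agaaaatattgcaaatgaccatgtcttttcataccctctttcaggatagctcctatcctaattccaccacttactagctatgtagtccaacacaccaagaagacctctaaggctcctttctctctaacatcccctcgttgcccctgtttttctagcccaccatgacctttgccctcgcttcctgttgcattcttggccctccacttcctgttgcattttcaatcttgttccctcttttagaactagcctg

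*Ccl9* was the only one of the 6 windows with a match to the NF-kB consensus, at bases -35 to -26 from the start, and with the AP-1 motif, at -53 to -47. These motifs occurred in 3.9% and 6.75% of the 32851 windows of this length in the genome. *Ccl19* alone held the interferon-stimulated response element, at -208 to -199 from a RefSeq start that lies within the gene as given above (2.98% of all windows). *Ccl12* and *Ccl8* each had TATAAA close to the start, beginning at -31 and -32, and *Ccl9* had it further up in 3 matches, of which a pair overlap. TATAAA occurred in 12.4% of all windows. The highest identity was between *Ccl8* and *Ccl12*, whose windows were 59.3% identical over their alignment, against 51.0% to 56.7% for the other pairs of the 15 and 51.0% for *Ccl6* and *Ccl9*. Identity was not computed for windows of unrelated genes, so whether any of these pairs exceeds that level was not tested. *Ccl8* held the PU.1 motif GAGGAAG (10.6% of windows), and the C/EBP motif TTNCNNAA (36.8% of windows) was found once for *Ccl3* and at -75 to -68 and -38 to -31 for *Ccl9*, where the second match overlaps the NF-kB one. The *Ccl6* window held none of the 6 motifs. A match describes the letters of a window and not a bound site, and no match says only that these letters are not there.

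WT libraries held 12000261 to 15340787 counts and *Tet2*-KO libraries 12625047 to 21049763. The unit of level is CPM, the count relative to a TMM-scaled library size, in which 3 counts, the limit that a count of 0 allows, correspond to between 0.146 and 0.247 CPM depending on the library. *Tet2* itself was at 126 to 147 CPM in WT mice and 117 to 137 CPM in *Tet2*-KO mice (log2 fold change -0.0097, edgeR adjusted p = 0.934), which does not check the labels because the recipients and most of the marrow kept the gene. The tissue label held, since 8 neuronal markers, among them *Snap25* and *Syt1*, summed to at least 3872 CPM in every library, 6 oligodendrocyte markers to at least 4479 CPM and 6 astrocyte markers to at least 4956 CPM. Mitochondrially encoded transcripts made up between 2.87% and 3.59% of counts in 11 libraries and 4.74% in *Tet2*-KO replicate 6.

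Mean levels of the 9 ligands that could be tested were lower in brains of the mice given *Tet2*-KO BM cells. All 9 had log2 fold changes below 0, as did 47.7% of all genes. These log2 fold changes, *Tet2*-KO over WT, lay between -2.24 for *Ccl8* and -0.80 for *Ccl3*, with a median of -1.49 against 0.01 for all 20290 genes tested. Summed over the ligands, the level was between 72.8 and 131.9 CPM in WT mice (median 87.4) and between 7.81 and 89.9 CPM in *Tet2*-KO mice (median 27.6). The expression filter asks for counts in 6 libraries, which one group alone can supply, and the ligands were chosen with earlier results known, so the median is a description and no support. In whole tissue, fewer cells that make a ligand and less of its RNA per cell cannot be told apart.

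**Figure D1:**
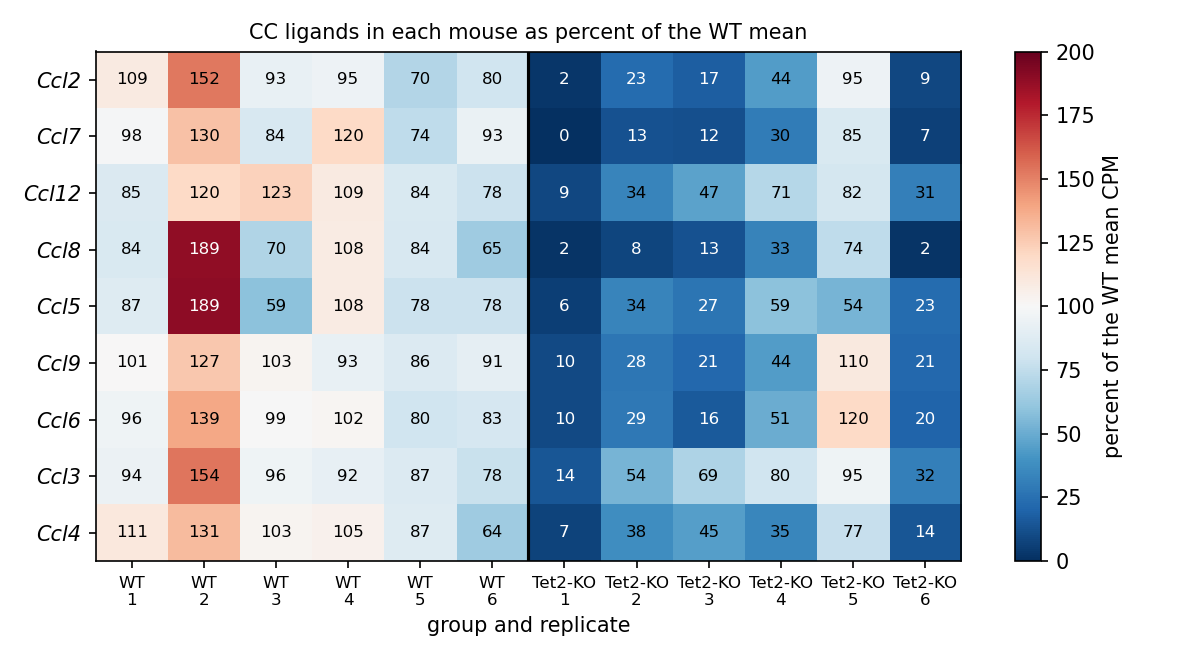
CPM of 9 CC ligands in each of the 12 mice, as a percentage of the ligand's WT mean (columns: group and replicate; numbers in the cells are rounded percentages). *Tet2*-KO replicate 1 holds the lowest value of every ligand, with a median of 7.15%, and *Tet2*-KO replicate 5 stands at a median of 85.0%.

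Among the CCR2 ligands and their neighbour, all in the first cluster, *Ccl8* and *Ccl7* had the largest differences and *Ccl12* the smallest. *Ccl2* (ENSMUSG00000035385), the prototype attractant of monocytes, was at 3.54, 4.73 and 7.67 CPM (lowest, median and highest) in WT mice and at 0.124, 1.02 and 4.79 CPM in *Tet2*-KO mice. The groups overlapped through *Tet2*-KO replicate 5 alone, and the other 5 mice of that group lay under the WT range. Mean levels were 5.04 ± 1.45 CPM for WT and 1.60 ± 1.72 CPM for *Tet2*-KO (SD over 6 mice each). The log2 fold change of -1.69 (SE 0.52), or 3.22-fold lower, had an edgeR adjusted p of 0.127.

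*Ccl7* (ENSMUSG00000035373), which shares CCR2 with *Ccl2* and lies 8.26 kb from it, was the least abundant of the 9, at 1.65, 2.12 and 2.87 CPM in WT mice and 0, 0.280 and 1.88 CPM in *Tet2*-KO mice. A WT mouse had 20 to 41 counts of it and a *Tet2*-KO mouse 0 to 24, so that the *Tet2*-KO values carry a wide counting error. *Tet2*-KO replicate 5 again lay within the WT range and the other 5 below it. The log2 fold change was -2.10 (SE 0.51), or 4.28-fold lower, with an edgeR adjusted p of 0.110.

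*Ccl12* (ENSMUSG00000035352), a CCR2 ligand of the mouse, was at 6.35, 7.87 and 9.98 CPM in WT mice and 0.744, 3.27 and 6.67 CPM in *Tet2*-KO mice. Here *Tet2*-KO replicate 5 exceeded only the lowest WT mouse, by 0.321 CPM, and *Tet2*-KO replicate 4 came next at 5.76 CPM. The mean was 8.10 ± 1.59 CPM in the WT group and 3.71 ± 2.19 CPM in the *Tet2*-KO group (SD over 6 mice each), a log2 fold change of -1.14 (SE 0.36) with an edgeR adjusted p of 0.128.

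*Ccl8* (ENSMUSG00000009185) had the lowest log2 fold change of the ligands, -2.24 (SE 0.64), or 4.71-fold lower. It was at 4.84, 6.29 and 14.1 CPM in WT mice and 0.124, 0.787 and 5.57 CPM in *Tet2*-KO mice, with counts of 2 in *Tet2*-KO replicates 1 and 6. WT replicate 2, the highest, stood well above the next WT mouse at 8.10 CPM, and *Tet2*-KO replicate 5 was the one *Tet2*-KO mouse inside the WT range. The edgeR adjusted p was 0.123.

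The second cluster holds the ligands of CCR1 and *Ccl4*. *Ccl5* (ENSMUSG00000035042), produced by T cells and by activated myeloid and glial cells, was at 3.09, 4.36 and 9.97 CPM in WT mice and 0.310, 1.61 and 3.09 CPM in *Tet2*-KO mice. It was the one ligand whose groups did not overlap, although the gap between the lowest WT mouse and the highest *Tet2*-KO mouse was only 0.00175 CPM and upper quartile scaling brought 1 *Tet2*-KO mouse back into the WT range. Such a full separation, with the *Tet2*-KO group lower, was found for 0.641% of tested genes. The highest *Tet2*-KO mouse was replicate 4 for this ligand and replicate 5 for the other 8. The log2 fold change was -1.56 (SE 0.40), with an edgeR adjusted p of 0.115 and an exact two-sided permutation p of 0.00216, the smallest that 6 mice against 6 allow.

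*Ccl9* (ENSMUSG00000019122) was at 10.6, 11.9 and 15.6 CPM in WT mice, the narrowest relative spread of the ligands there, and at 1.24, 3.04 and 13.5 CPM in *Tet2*-KO mice. Of the latter, 5 were at or below 5.45 CPM and replicate 5 was above the WT median. The mean was 12.3 ± 1.79 CPM for WT and 4.81 ± 4.47 CPM for *Tet2*-KO (SD over 6 mice each), a log2 fold change of -1.38 (SE 0.45) with an edgeR adjusted p of 0.132.

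*Ccl6* (ENSMUSG00000018927), a CCR1 ligand of macrophages 9.25 kb from *Ccl9*, was the most abundant of the ligands by CPM. Its levels were 24.7, 30.1 and 42.7 CPM in WT mice and 2.97, 7.54 and 37.0 CPM in *Tet2*-KO mice, where replicate 5 exceeded 5 of the 6 WT mice. The mean was 30.8 ± 6.46 CPM for WT and 12.6 ± 12.7 CPM for *Tet2*-KO (SD over 6 mice each). The log2 fold change was -1.30 (SE 0.52), with an edgeR adjusted p of 0.175.

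*Ccl3* (ENSMUSG00000000982), an early product of activated microglia and macrophages, had the smallest difference, a log2 fold change of -0.80 (SE 0.36) or 1.74-fold lower. It was at 9.92, 11.9 and 19.6 CPM in WT mice and 1.80, 7.83 and 12.2 CPM in *Tet2*-KO mice. It was also the one ligand with a pair of *Tet2*-KO mice, replicates 4 and 5, inside the WT range. The edgeR adjusted p was 0.213.

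*Ccl4* (ENSMUSG00000018930), the relative of *Ccl3* encoded next to it on the opposite strand, was at 4.44, 7.18 and 9.11 CPM in WT mice and 0.496, 2.52 and 5.33 CPM in *Tet2*-KO mice. *Tet2*-KO replicate 5 was above the lowest WT mouse and the other 5 were below it. The log2 fold change of -1.49 (SE 0.38), or 2.82-fold lower, was larger in size than that of its neighbour *Ccl3*, and the edgeR adjusted p was 0.114.

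*Ccl19* (ENSMUSG00000071005), the CCR7 ligand, was near the limit of detection. WT mice had counts between 0 and 7 and *Tet2*-KO mice between 0 and 2, which summed to 17 and 3 counts over the groups. In the WT group 1 mouse and in the *Tet2*-KO group 4 mice had no count. It did not pass the expression filter. With the filter left off, its log2 fold change was -2.44 (SE 0.84) with an edgeR adjusted p of 0.18, and an exact two-sided permutation test on log2(CPM + 0.1) gave p = 0.0433. These values rest on few counts, some of which may stem from its pseudogenes.

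**Figure D2:**
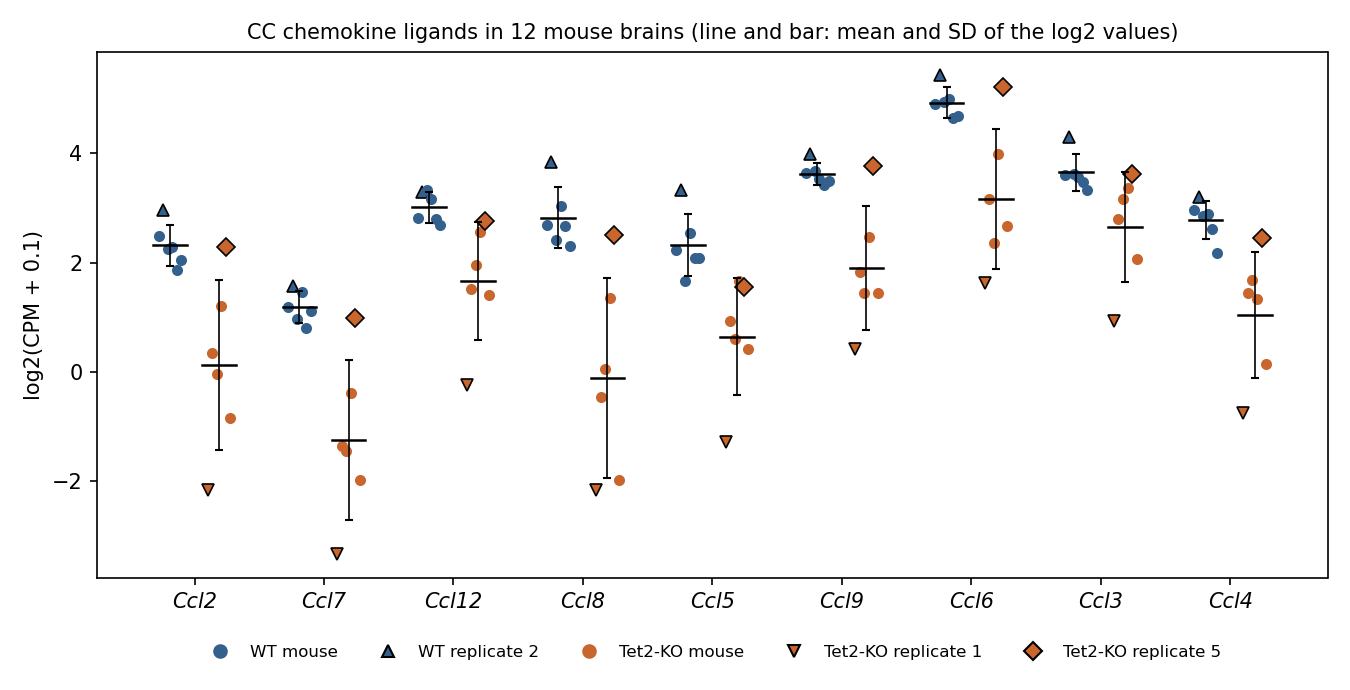
Level of each ligand in each mouse, as log2(CPM + 0.1), ordered by position along chromosome 11, where lines and bars give the mean and SD of the log2 values (n = 6 per group). In the *Tet2*-KO group replicate 5 (diamonds) lies at the top for every ligand except *Ccl5* and replicate 1 (downward triangles) at the bottom, and WT replicate 2 (upward triangles) is the highest WT mouse except for *Ccl12*.

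None of the 9 ligands passed an adjusted p of 0.05 with edgeR, which 0.0246% of all tested genes did. Before adjustment all 9 had a p under 0.05 and were lower, against 12.2% of all genes. The smallest unadjusted p was 0.00111, for *Ccl7*, and the largest 0.0483, for *Ccl3*. When each mouse was left out in turn, *Ccl3* kept an unadjusted edgeR p under 0.05 in 4 of 12 fits and *Ccl6* in 8. The other tested ligands kept it in all 12 fits. With the DESeq2 Wald test, which the study used, 3 of the 9 were past the adjusted threshold and lower (*Ccl5*, adjusted p = 0.00724, *Ccl7*, 0.0114, and *Ccl4*, 0.0321), against 3.71% of genes. With limma-voom and sample quality weights all but *Ccl3* were (adjusted p = 0.0590 for *Ccl3*), against 7.01% of genes.

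**Figure D3:**
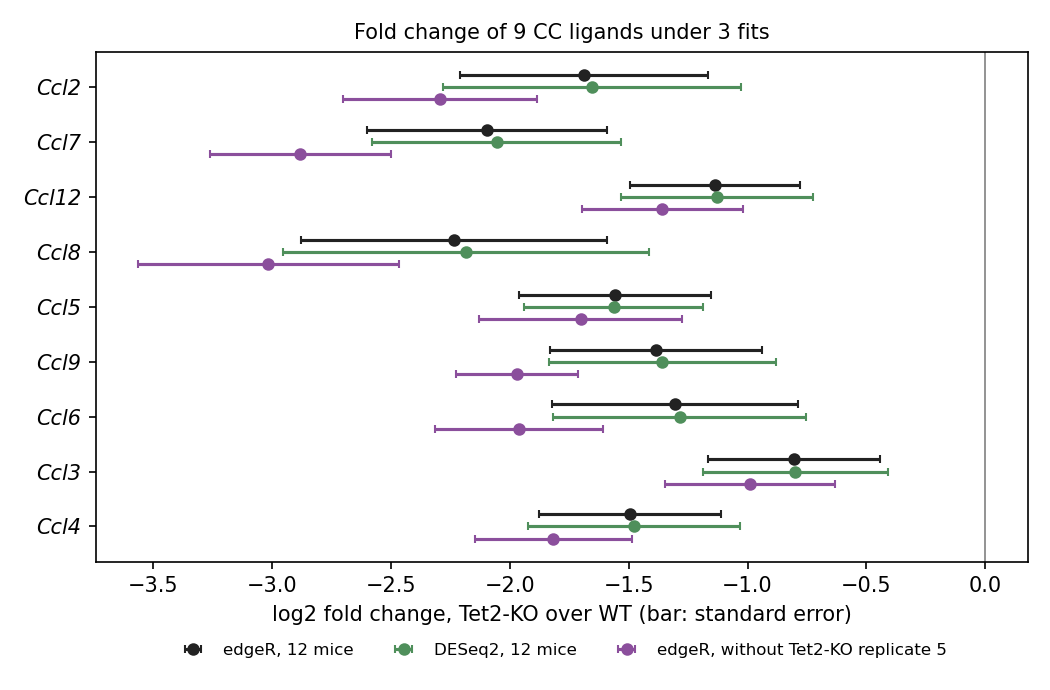
Log2 fold change of 9 CC ligands, *Tet2*-KO over WT, with standard errors, from edgeR and DESeq2 on 12 mice and from edgeR on 11 mice without *Tet2*-KO replicate 5. All 27 points lie below 0, and leaving out replicate 5 moves *Ccl8* from -2.24 to -3.02 and *Ccl3* from -0.80 to -0.99.

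The spread within the *Tet2*-KO group followed single mice across the ligands. Replicate 1 was the lowest of all 12 mice for each of the 9 ligands, at 0% to 14.1% of the WT mean, and its summed level was 7.81 CPM. Replicates 6, 3 and 2 followed with medians over the ligands of 20.2%, 21.3% and 28.7% of the WT mean, and replicate 4 with 44.3%. Replicate 5 had a median of 85.0%, from 53.6% for *Ccl5* to 120% for *Ccl6*, and lay within the WT range for 8 of the 9. Among WT mice, replicate 2 was the highest for 8 ligands and reached 189% of the WT mean for *Ccl5* and *Ccl8*, whereas replicate 3 was the highest for *Ccl12* and the lowest for *Ccl5*.

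Without *Tet2*-KO replicate 5, 8 of the 9 ligands passed the adjusted threshold of edgeR, against 7.3% of genes, and *Ccl3* did not (adjusted p = 0.1). *Ccl7* then had a log2 fold change of -2.88 (SE 0.38, edgeR adjusted p = 0.00185) and *Ccl9* one of -1.97 (SE 0.26, edgeR adjusted p = 0.00308). Without both WT replicate 2 and *Tet2*-KO replicate 5, 7 passed, all but *Ccl3* and *Ccl12* (edgeR adjusted p = 0.216 and 0.0663), against 4.94% of genes. In the 11 fits that each left out another single mouse, no ligand passed.

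Compared per length of exon, *Ccl6* and *Ccl3* were the most abundant ligands in WT brains, at 17.2 ± 3.60 and 16.6 ± 4.5 CPM per kb (SD, n = 6). *Ccl12* and *Ccl8* followed at 15.1 ± 2.96 and 14.6 ± 6.75 CPM per kb, and these 4 were not separated from each other, since the ranges of each neighbouring pair overlapped. *Ccl4* was at 10.5 ± 2.39, *Ccl5* at 5.49 ± 2.56, *Ccl2* at 4.43 ± 1.28, *Ccl9* at 4.05 ± 0.589 and *Ccl7* at 2.76 ± 0.583 CPM per kb. *Ccl9*, which by CPM had the highest mean after *Ccl6* and *Ccl3*, stood lower on this scale, with an exonic length of 3045 bases. The length joins the exons of all annotated transcripts of a gene, from 1 for *Ccl3* to 3 for *Ccl6*. Which transcripts were present was not tested, so the order depends on this choice of length. *Ccl19* was at 0.231 ± 0.211 CPM per kb, the one ligand whose WT range lay apart from that of the ligand above it.

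In the *Tet2*-KO group *Ccl3* came first at 9.56 ± 5.07 CPM per kb, above *Ccl6* at 7.03 ± 7.09 in 5 of 6 mice (SD, n = 6). *Ccl12* was at 6.90 ± 4.08, *Ccl4* at 3.78 ± 2.60 and *Ccl8* at 3.23 ± 4.12 CPM per kb, so that *Ccl8* stood below *Ccl4* by its mean where in WT brains it stood above. *Ccl5*, *Ccl9*, *Ccl2* and *Ccl7* were at 1.85, 1.58, 1.41 and 0.680 CPM per kb. Every neighbouring pair in this order had overlapping ranges. Compared within mice, *Ccl12* was above *Ccl4* and *Ccl2* above *Ccl7* in 6 of 6 *Tet2*-KO mice. The other steps of the order held in 2 to 5 mice.

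**Figure D4:**
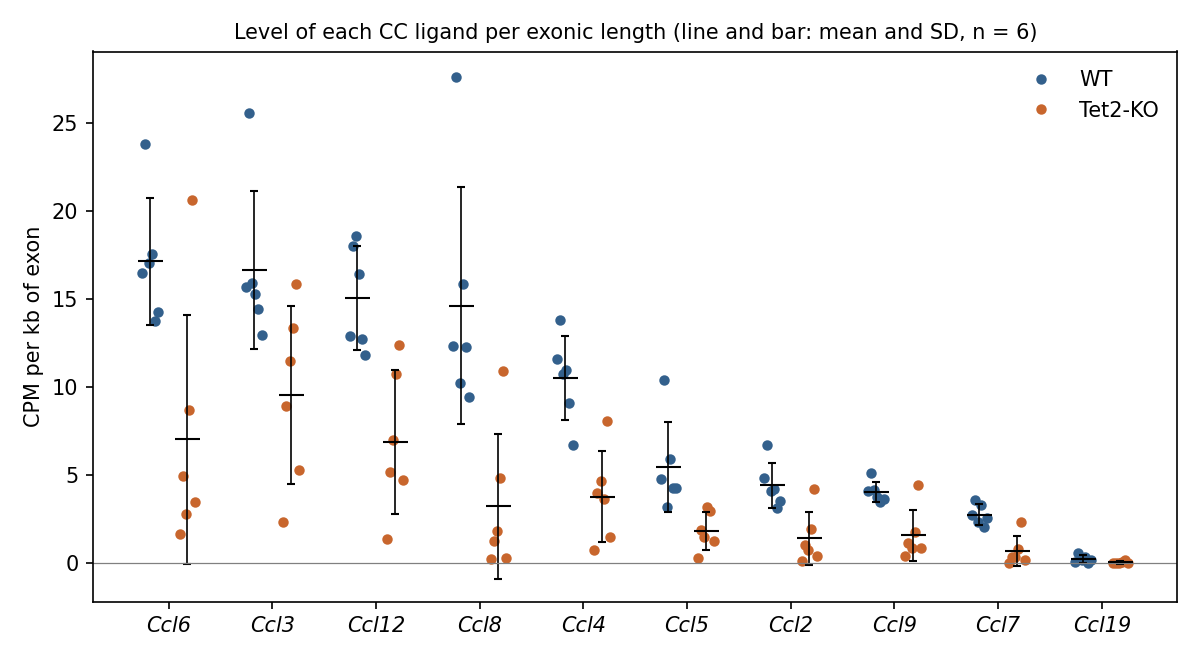
Level of each ligand per kb of exon in CPM, one point per mouse, with mean and SD (n = 6 per group), ordered by the WT mean. WT means run from 17.2 for *Ccl6* to 0.231 for *Ccl19*, and *Tet2*-KO means from 9.56 for *Ccl3* to 0.0400 for *Ccl19*.

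To see whether the ligands differed from each other in the size of their difference, the log2 ratio of the counts of each pair was compared between the groups within mice, a set of tests chosen after the values were seen. In 36 pairs, 23 had an exact two-sided permutation p under 0.05 and 16 had an adjusted p under 0.05 (Benjamini-Hochberg over the 36 pairs). The log2 ratio of *Ccl3* to *Ccl4* was 0.87 ± 0.21 with WT and 1.65 ± 0.35 with *Tet2*-KO BM cells (SD over 6 mice each, exact permutation p = 0.00216, adjusted p = 0.0260). In WT mice it lay between 0.65 and 1.15 and in *Tet2*-KO mice between 1.18 and 2.07, so these adjacent genes were not lower to the same degree. The largest shift was that of *Ccl3* over *Ccl8*, from 0.83 ± 0.29 to 2.95 ± 1.18 (exact permutation p = 0.00433, adjusted p = 0.0260, n = 6 per group).

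For the neighbours *Ccl12* and *Ccl8* the log2 ratio of *Ccl8* to *Ccl12* shifted by -1.74 (exact permutation p = 0.00649, adjusted p = 0.0260, n = 6 per group). By contrast the log2 ratio of *Ccl6* to *Ccl9*, the neighbouring CCR1 ligands, was 1.31 ± 0.12 with WT and 1.29 ± 0.21 with *Tet2*-KO BM cells (SD over 6 mice each), a difference of -0.02 (exact permutation p = 0.879). *Ccl2* over *Ccl8* shifted by 0.80 and *Ccl2* over *Ccl7* by 0.55 (exact permutation p = 0.00866 and 0.0108, adjusted p = 0.0260 and 0.03, n = 6 per group). The ratios of *Ccl7*, *Ccl8* and *Ccl2* rest on low counts in some *Tet2*-KO mice. *Tet2*-KO replicate 6 had 2, 2 and 6 counts of these genes, and *Tet2*-KO replicate 1 had 0, 2 and 2. Without *Tet2*-KO replicate 1, 17 pairs had a p under 0.05 and none passed after adjustment (smallest adjusted p = 0.0519, exact permutation tests). Without *Tet2*-KO replicate 5 the numbers were 24 and 21.

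Of 14 genes for CC and atypical chemokine receptors, 10 could be tested, and 5 had an unadjusted edgeR p under 0.05 and were lower (12.2% of all genes), 2 were higher (10.8% of all genes) and none passed after adjustment. *Ccr2*, the monocyte receptor of *Ccl2*, *Ccl7* and *Ccl12*, was at 9.84, 12.7 and 27.5 CPM (lowest, median, highest) in WT mice and 0.434, 2.57 and 14.7 CPM in *Tet2*-KO mice, a log2 fold change of -1.78 (SE 0.65, edgeR adjusted p = 0.155). *Ccr1*, the receptor of *Ccl3*, *Ccl5*, *Ccl6* and *Ccl9*, was lower by a log2 fold change of -1.69 (SE 0.60, edgeR adjusted p = 0.147), with 9 to 51 counts per WT mouse and 0 to 29 per *Tet2*-KO mouse.

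*Ccr7*, the receptor of *Ccl19*, had a log2 fold change of -1.51 and *Ccrl2*, an atypical receptor that does not signal, one of -1.31 (edgeR adjusted p = 0.110 for each). With DESeq2 the adjusted p of *Ccr7* and *Ccrl2* was 0.00331 and 0.00399. The 2 receptors that were higher are atypical receptors, which bind chemokines without signalling. *Ackr1*, expressed on red cells, venules and some neurons, was at 26.3 ± 2.10 CPM for WT and 31.1 ± 3.83 CPM for *Tet2*-KO, and *Ackr2* at 1.74 ± 0.346 and 2.35 ± 0.489 CPM (SD over 6 mice each, log2 fold changes 0.24 and 0.44, edgeR adjusted p = 0.132 and 0.171). *Ccr9*, *Ccr10* and *Ackr4* had log2 fold changes of -0.39, -0.06 and -0.06 (edgeR adjusted p at least 0.271), and 4 receptors had too few counts to be tested.

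Of 11 other CC ligands only 4 could be tested, and *Ccl22*, a CCR4 ligand made by dendritic cells and macrophages, was the 1 with an unadjusted p under 0.05, which it lost without WT replicate 2. It was at 2.35 ± 1.17 CPM for WT and 0.985 ± 0.807 CPM for *Tet2*-KO (SD over 6 mice each, log2 fold change -1.26, SE 0.47, edgeR adjusted p = 0.151). *Ccl25*, *Ccl27a* and *Ccl28*, ligands known from thymus, skin and mucosa, had log2 fold changes of 0.09, 0.17 and 0.26 (edgeR adjusted p = 0.464, 0.396 and 0.309). *Ccl21a* had no count in any library and *Ccl26* none in WT mice, and *Ccl1*, *Ccl11*, *Ccl17*, *Ccl20* and *Ccl24* had too few counts to be tested.

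Genes known to induce CC ligands were lower before adjustment. Of 13 such cytokine and transcription factor genes 11 could be tested, and all 11 had an unadjusted p under 0.05 and were lower, against 12.2% of all genes, with a median log2 fold change of -0.86. Without WT replicate 2 this held for 9 of the 11, and with upper quartile scaling for 10. Only *Il1b*, the cytokine interleukin-1 beta, passed the adjusted threshold, falling from 5.16 ± 2.43 CPM to 0.699 ± 0.375 CPM (SD over 6 mice each, log2 fold change -2.94, edgeR adjusted p = 0.0364). *Il1b* was low in all *Tet2*-KO mice, at 0.434 to 1.41 CPM against 2.06 to 8.68 CPM in WT mice, replicate 5 included. A separation of this kind, with the *Tet2*-KO group lower, was found for 0.641% of tested genes. *Il1a* and *Tnf* had log2 fold changes of -1.10 and -1.12 (edgeR adjusted p = 0.116 and 0.124).

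The NF-kB subunit genes had log2 fold changes of -0.98 for *Nfkb2*, -0.86 for *Relb*, -0.60 for *Rel*, -0.39 for *Nfkb1* and -0.34 for *Rela* (edgeR adjusted p from 0.0816 for *Relb* to 0.193 for *Rela*). Whether their levels bear on any of the ligands was not tested. *Relb* did not overlap between the groups, with 11.3 CPM in the lowest WT mouse and 10.4 CPM in the highest *Tet2*-KO mouse. Every *Tet2*-KO mouse lay below every WT mouse for 0.641% of tested genes. *Irf1*, a mediator of the interferon response, had a log2 fold change of -0.78 (SE 0.19, edgeR adjusted p = 0.110). *Irf7*, which drives type I interferon production, was at 40.6 to 55.5 CPM in WT mice and at 5.95 to 60.1 CPM in *Tet2*-KO mice, for a log2 fold change of -1.03 (SE 0.46, edgeR adjusted p = 0.216). *Il6* and *Ifng* had too few counts to be tested, with 14 and 7 counts over the WT group and 6 and 4 over the *Tet2*-KO group.

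Genes for the signalling chain below the receptors had log2 fold changes from -0.92 to 0.14, with a median of -0.31. Of 10, 6 had an unadjusted p under 0.05 and were lower (12.2% of all genes) and 2 were higher (10.8% of all genes), and none passed after adjustment. Without WT replicate 2 the counts were 4 lower and 1 higher. The lowest 2 were *Rac2* and *Dock2*, regulators of leukocyte migration named after their values were seen, at -0.92 and -0.84 (edgeR adjusted p = 0.192 and 0.191). The most abundant 3 were *Gnb1*, a G protein beta subunit, *Arrb1*, an arrestin that desensitizes receptors, and *Gnai2*, the alpha subunit to which chemokine receptors couple. Their log2 fold changes were 0.12, 0.14 and -0.29 (edgeR adjusted p = 0.191, 0.132 and 0.15).

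Many markers of leukocytes that make or answer these ligands were lower before adjustment, and the counts that follow are at an unadjusted p under 0.05, at which 12.2% of all genes were lower and 10.8% higher. Of 6 monocyte markers that could be tested (7 listed), all 6 had an unadjusted p under 0.05 and were lower (median log2 fold change -1.71), and the summed level of the list was 396 to 820 CPM in WT and 142 to 494 CPM in *Tet2*-KO mice, where replicate 5 held 494. Its most abundant genes, *Fn1*, *Itga4* and *Ly6c2*, had log2 fold changes of -1.10, -0.53 and -1.95, and *Fn1*, which other cells make too, accounted for most of the sum. Activated phagocyte markers were lower in 6 of 8 (median -1.24, summed level 2878 to 6695 CPM and 727 to 3577 CPM). Of their most abundant genes, *Apoe* and *Gpnmb* had log2 fold changes of -0.98 and -2.02 (edgeR adjusted p = 0.145 and 0.159), and *Spp1*, one of the 2 that missed the unadjusted threshold, had one of -1.67 (edgeR adjusted p = 0.28). Neutrophil markers were lower in 6 of 6 that could be tested of 11 (median -1.83, 75.2 to 167 CPM and 24.9 to 84.3 CPM). *Csf3r*, which microglia express as well, made up most of that sum (log2 fold change -0.86). *Ly6g* was at 0 in every *Tet2*-KO mouse, but it did not pass the expression filter and was not tested. Only *S100a8* and *S100a9* of this list passed the adjusted threshold (edgeR adjusted p = 0.0364 for each).

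In each of these 3 lists WT replicate 2 held the highest sum of all mice and *Tet2*-KO replicate 1 the lowest, as for the ligands. Markers of homeostatic microglia, the resident macrophages of the brain, were lower at an unadjusted p under 0.05 in 1 of 8, against 12.2% of all genes (*Fcrls*, log2 fold change -0.75, edgeR adjusted p = 0.193). *Cx3cr1*, an abundant marker of this list, had a log2 fold change of -0.34, and the summed level was 687 to 1249 CPM in WT and 325 to 874 CPM in *Tet2*-KO mice. Border macrophage markers were lower in 5 of 8 (median -0.88, 49.9 to 88.4 CPM and 15.4 to 61.7 CPM), T and NK cell markers in 4 of 4 that could be tested of 11 (median -0.92, 13.9 to 22.4 CPM and 6.90 to 14.1 CPM), and dendritic cell markers in 4 of 6 (median -0.70, 42.0 to 44.7 CPM and 34.2 to 44.0 CPM).

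Among lists for cells that are not leukocytes, each fibroblast and neuronal marker differed before adjustment, and no marker of these lists passed after it. All 5 fibroblast markers, led by *Col1a1*, *Col1a2* and *Col3a1* with log2 fold changes of -1.36, -1.30 and -1.57, were lower at an unadjusted p under 0.05, with a summed level of 488 to 1178 CPM in WT and 88.2 to 639 CPM in *Tet2*-KO mice. All 8 neuronal markers were higher at that level (median 0.23, 3872 to 5459 CPM and 5050 to 6574 CPM). Endothelial markers were lower in 2 of 7 (median -0.11), astrocyte markers were higher in 1 of 6 (median -0.09), and none of 6 oligodendrocyte markers had a p under 0.05 (median 0.01). The part of these shifts in the levels of the CC ligands was not tested. *Tet2*-KO replicate 5 was at or above the lowest WT sum for microglia, activated phagocytes, monocytes, neutrophils, border macrophages, T and NK cells, dendritic cells and fibroblasts. With WT replicate 2 left out, the counts at that level were 3 of 8 for activated phagocytes, 3 of 5 for fibroblasts, 2 of 6 for dendritic cells, 1 of 7 for endothelium, 5 of 8 for neurons, and 0 for homeostatic microglia, astrocytes and the other CC ligands. For the receptors they were then 4 lower and 1 higher, and for neutrophil markers 5 of 6 were lower.

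**Figure D5:**
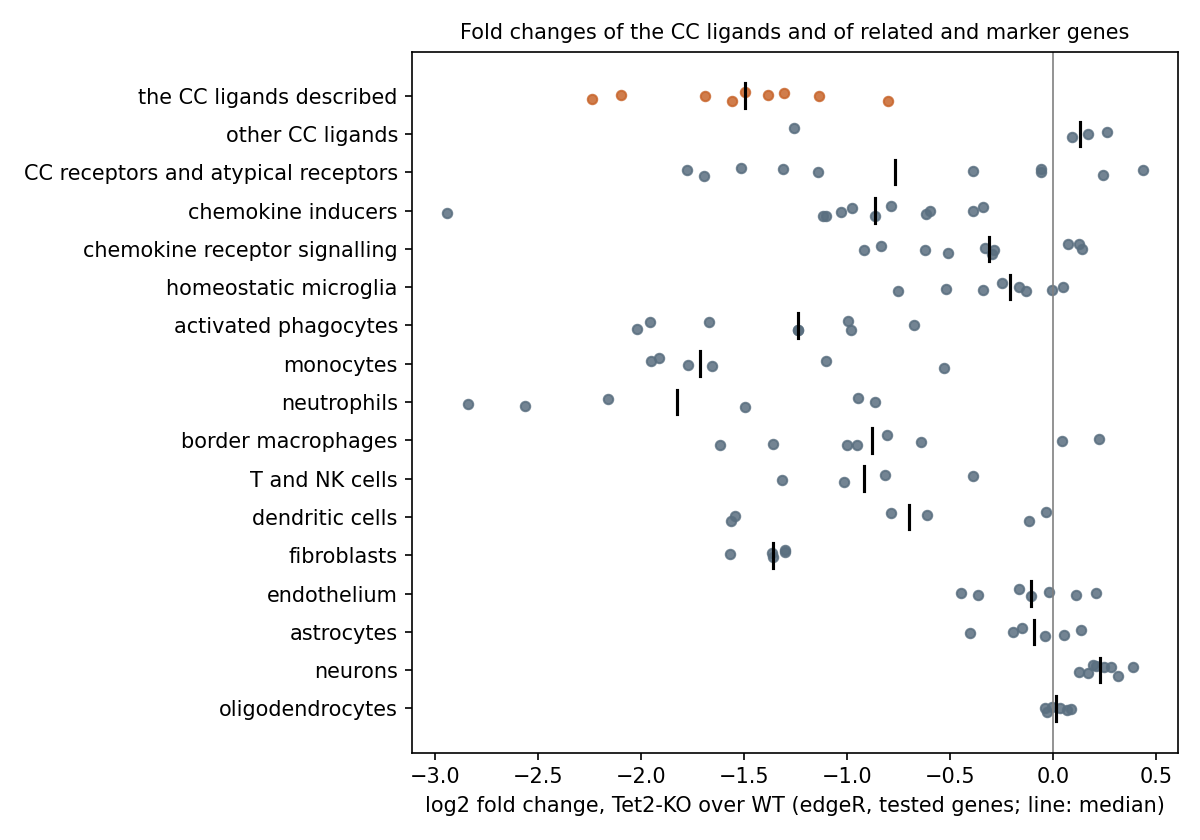
Log2 fold change, *Tet2*-KO over WT (edgeR), of the tested genes of each list, one point per gene with the median as a line. The CC ligands described (top, median -1.49) stand with neutrophil (-1.83), monocyte (-1.71), fibroblast (-1.36) and activated phagocyte markers (-1.24), and the neuronal markers all lie above 0.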

How the data were processed

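RNA was extracted from the brains of 6 WT and 6 *Tet2*-KO mice, depleted of ribosomal RNA and sequenced as paired reads on an Illumina HiSeq instrument. Per the submitters' processing notes and the study's methods, reads were trimmed with Trimmomatic 0.36, aligned to mm10 with STAR 2.5.2b and counted with featureCounts of Subread 1.5.2, using unique reads in exons. The authors deposited the raw count of each gene in each library, with no normalization. Whether strand was used is not given in the sources used here. Of 49315 gene IDs 48970 had a symbol, and 0 columns were left unused.

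Genes passing filterByExpr (20290) were scaled by TMM and compared in edgeR (4.0.16, R 4.3.3) by its quasi-likelihood test. No covariates were used, p-values were adjusted by the Benjamini-Hochberg method over all genes tested, and 0.05 was the threshold. The study's own test, the DESeq2 Wald test (1.42.0), limma-voom with sample weights (limma 3.58.1), other scalings and filters, a replicate block and leaving out mice were alternatives. The edgeR, DESeq2 and limma steps were tested on counts simulated with the same dispersion for every gene. That simulation held no outlying mouse, so it does not bear on the differences between these tests here. Single ligands were also compared by exact two-sided permutation of log2(CPM + 0.1), and pairs of ligands by that of log2 count ratios with 0.5 added (scipy 1.17.1). Intervals and limits from counts cover counting error only. The p-values set the difference between the groups against the variation between mice, and they cover these 12 mice only. The ligands and all gene lists were chosen with earlier results of these data known. Named were every ligand, every other CC ligand, receptor and inducer that passed the filter, and up to 3 most abundant genes of the signalling and cell type lists, and *Fcrls*, *S100a9*, *Ly6g* and the untested genes were named after their values were seen. Some genes that the rule names are not reported here.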

Additional observations from a re-analysis of the deposited data

Results flagged for a closer look

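Within each group of 6 mice, the highest and lowest values were compared with their nearest neighbour by Dixon's criterion, which chance meets in about 1 in 20 groups. It was met in 8 of 26 groups. WT replicate 2 stood apart for *Ccl3* (19.6 CPM), for *Ccl8* (14.1 CPM) and for the summed ligands (131.9 CPM). *Tet2*-KO replicate 5 stood apart for *Ccl6* (37.0 CPM), *Ccl7* (1.88 CPM), *Ccl9* (13.5 CPM) and *Ccl19* (0.157 CPM, from 2 counts). *Tet2*-KO replicate 6 stood apart in its share of mitochondrially encoded counts (4.74%), with a summed ligand level of 18.5 CPM. These values share mice, so they are not separate observations.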

How the results depend on the processing

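All 175 log2 fold changes of single ligands under the alternatives were below 0, from -3.03 to -0.60, and 26 were past the adjusted threshold. The number of the ligands past it was 0 with edgeR, 3 with the DESeq2 Wald test, 8 with limma-voom, 7 without both WT replicate 2 and *Tet2*-KO replicate 5 (chosen after seeing the data), and 0 to 8 when each mouse was left out in turn, where 8 came without *Tet2*-KO replicate 5. Before adjustment 9 ligands passed, 4 when at least 10 counts were required in every library, which leaves 4 to test, and 7 to 9 with a mouse left out. Over all genes, 5 were past the adjusted threshold, against 917 with DESeq2, 2013 with limma-voom, 44 with no filter on low counts, 0 with at least 10 counts in every library, 1554 without both of those mice and 0 to 2257 with one mouse left out. The cause of these differences between tests was not tested. Of the receptors 7 passed before adjustment, 4 with at least 10 counts in every library and 5 to 8 with a mouse left out. The median log2 fold change of the ligands was -1.49, and -1.96 to -1.28 with a mouse left out. The median of all genes was 0.01 with TMM and 0.04 with upper quartile scaling. Replicate numbers did not pair the samples (correlations of -0.17 to 0.23, with 1 of 6 mice most like its own number), and with the replicate block 0 genes passed after adjustment, with 9 ligands and 7 receptors passing before it. Ratios of ligands passed in 23 pairs before adjustment, 24 without *Tet2*-KO replicate 5, 17 without *Tet2*-KO replicate 1 and 22 with a pseudocount of 1. Low counts limit *Ccl7* and *Ccl19* most.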
